A study of Drosophila melanogaster with 84 samples.

Results

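Of the 15801 genes listed in the count tables, 5 genes for transcription factors, chosen by name, were followed through sorted clock neurons of the fly brain: glass (gl), hamlet (ham), Dichaete (D), bifid (bi) and odd paired (opa). The wells used held 1000 to 6000 genes and 6000 to 75000 UMIs (unique molecular identifiers, 1 for each captured mRNA molecule), which left 5001 of 8060 wells. A well was then assigned by the neuropeptide transcript it carried, in UMIs per 10000 gene UMIs of the well (TP10K): Pdf or ITP at 150 or more, Trissin at 40, CCHa1 at 10, AstC at 50 together with VGlut at 8, CNMa at 50, and AstA at 10. These gates held 429 Pdf wells, 142 ITP wells, 170 Trissin wells, 212 CCHa1 wells, 464 AstC+VGlut wells, 313 CNMa wells and 236 AstA wells, and 3268 wells (65.3%) passed none of them. The gates shared few wells except for 194 wells that were in both the AstC+VGlut and the CNMa gate.

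The neurons came from adult Drosophila melanogaster of both sexes, in which Clk856-GAL4 drove EGFP in most clock neurons, in only a part of the dorsal DN3 group and in a few cells that carry no clock. EGFP-positive cells of dissociated brains were sorted 1 to a well. The DD flies had spent 3 days in constant darkness after entrainment and were taken at circadian times (CT) 2, 6, 10, 14, 18 and 22 h in 48 libraries. The LD flies were kept in a light:dark cycle and were taken at zeitgeber times (ZT) of the same 6 hours in 36 libraries. All flies shared the driver and the reporter, and no group was treated otherwise. Libraries of 1 time point that carry the same batch number in their titles were summed as a batch, which gave 14 batches in DD and 14 in LD. None of the 10 batch numbers of DD and the 6 of LD was shared, so light condition and batch cannot be told apart. Nothing in the labels says how the batches differ. The light and rhythm tests below took each batch as an independent unit, and their p-values measure the spread between batches. Some batch numbers recur at several time points, so batches with the same number may not be independent. The p-values of the tests between classes of wells, with the batch as a block, measure how the difference within a batch varies.

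The kept wells had a median of 13702 UMIs in DD and 17302 in LD, and 4 to 87 wells were kept per library. The gates carried the neuronal genes elav, nSyb, Syt1 and brp at 40.4 to 52.2 TP10K in sum, and the 3 glial genes in the files at 0.527 to 1.35. The clock gene tim stood at 10.7 to 20.4 TP10K in the gates and at 7.74 in wells of no gate. Detection of 1 UMI alone was not specific to a cell type: Pdf was found in 98.6% of ITP wells, at 15.0 TP10K against 446 in Pdf wells, and the source of these UMIs was not tested.

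Clock neurons of the fly brain are grouped by position. Pdf marks the ventral lateral neurons, and ITP and Trissin mark dorsal lateral neurons, with ITP also in a ventral lateral cell without Pdf. CCHa1 marks the anterior dorsal DN1a cells, and CNMa, and AstC with the glutamate transporter gene VGlut, mark posterior dorsal DN1p cells. The factors studied here are best known from development. gl encodes a zinc finger protein that photoreceptors need to differentiate and that most DN1p cells need to form. ham encodes a PRDM zinc finger protein that shapes dendrites and cell fate in sensory and olfactory lineages. D encodes a Sox-family HMG box protein of the embryonic nervous system and of neural progenitors. bi, also called optomotor-blind, encodes a T-box protein of the optic lobe and the wing. opa encodes a Zic-family zinc finger protein that sets the timing of segmentation in the embryo. The study named these factors from their pattern in the same cells, so their levels across gates are given as a description without a test.

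In genome build dm6, gl (FBgn0004618) lies on 3R at 18367927 to 18372738, minus strand. ham (FBgn0045852) lies on 2L at 18762874 to 18792906, minus strand, and D (FBgn0000411) lies on 3L at 14175610 to 14178620, minus strand. opa (FBgn0003002) lies on 3R at 4852813 to 4869979, plus strand. bi (FBgn0000179) lies on X at 4412856 to 4485647, plus strand, and the whole gene lies inside CR32773 (FBgn0052773), a non-coding RNA gene at 4387676 to 4611385 on the minus strand. All wells together held 9730 UMIs of gl, 4525 of ham, 10805 of D, 30840 of bi and 2070 of opa, and 24822 of CR32773. Whether strand was used in the counting is not stated in the sources used here, so reads of bi and CR32773 may not have been told apart.

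gl was high in CNMa, AstC+VGlut and AstA wells and low in the lateral gates and in CCHa1 wells. Over batches with at least 3 wells of a gate, gl averaged 3.97 ± 2.03 TP10K in CNMa wells (SD, n = 20 batches; lowest 1.53, median 4.04, highest 10.1). In AstC+VGlut wells it averaged 2.90 ± 1.59 (n = 26; lowest 0.769, median 2.52, highest 6.64), and in AstA wells 1.92 ± 1.46 (n = 24; lowest 0.211, median 1.61, highest 7.35). The remaining 4 gates lay far below. Pdf wells averaged 0.215 ± 0.172 TP10K of gl, Trissin wells 0.148 ± 0.147, CCHa1 wells 0.136 ± 0.174 and ITP wells 0.127 ± 0.118. The step from AstA to Pdf wells, 8.94-fold, was the single step in this order that exceeded the SDs of both neighbours. Within batches, gl was higher in AstC+VGlut wells than in Pdf wells in 26 of 26 batches, and higher in CNMa than in AstC+VGlut wells in 18 of 19. The CNMa and AstC+VGlut gates share 194 wells, 62.0% of CNMa wells, which count on both sides of the last comparison.

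ham followed gl. It averaged 1.64 ± 0.637 TP10K in AstC+VGlut wells (SD, n = 26; lowest 0.517, median 1.55, highest 2.89) and 1.58 ± 0.736 in CNMa wells (n = 20; lowest 0, median 1.63, highest 3.09). AstA wells had 1.12 ± 0.713 (n = 24). In Pdf, ITP, CCHa1 and Trissin wells its mean lay between 0.0520 and 0.0890 TP10K, and the highest single batch among them had 0.370. AstC+VGlut and CNMa wells did not differ beyond their spread, and the step from AstA to Pdf wells was 12.6-fold.

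D was high in 2 lateral and 2 dorsal gates. Its mean was 2.26 ± 0.709 TP10K in CNMa wells (SD, n = 20), 2.25 ± 1.07 in AstC+VGlut wells (n = 26), 2.19 ± 0.920 in Trissin wells (n = 22) and 2.13 ± 0.959 in ITP wells (n = 20), and these 4 did not differ beyond their spread. AstA wells had 1.27 ± 0.678 (n = 24). In CCHa1 wells D was at 0.251 ± 0.225 (n = 24), and in Pdf wells at 0.210 ± 0.162 (n = 26; lowest 0, median 0.179, highest 0.710). D was higher in ITP than in Pdf wells in 20 of 20 batches, and higher in Trissin than in Pdf wells in 21 of 21. Pdf and CCHa1 wells were thus the gates with little D, and ITP and Trissin wells held D at levels near those of DN1p wells while their gl and ham stayed low.

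opa was high in Pdf wells, at 1.33 ± 0.484 TP10K (SD, n = 26 batches; lowest 0.373, median 1.2, highest 2.35). AstA wells averaged 0.0999 ± 0.152, with a highest batch of 0.677, and the other 5 gates 0.0305 to 0.0444. The step from Pdf to AstA wells was 13.3-fold, and opa was higher in Pdf wells than in each of the 6 other gates in all batches that held both. Wells with AstC at 50 TP10K or more but VGlut under 8, a split chosen after the values were seen, had 0.412 ± 0.741 TP10K of opa in 21 batches, with up to 2.99 in 1 batch.

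bi was found in every gate, with the higher levels in the lateral ones. It averaged 4.86 ± 2.25 TP10K in Trissin wells (SD, n = 22; lowest 0.928, median 4.65, highest 12.5), 4.39 ± 1.82 in ITP wells (n = 20) and 4.22 ± 2.02 in Pdf wells (n = 26; lowest 2.05, median 4.04, highest 11.8). AstC+VGlut wells had 2.10 ± 2.21 (n = 26), AstA wells 2.06 ± 1.67 (n = 24), CNMa wells 1.89 ± 2.45 (n = 20) and CCHa1 wells 1.53 ± 2.13 (n = 24). No step in this order exceeded the SDs of both neighbours. Within batches the lateral gates stood above CCHa1 wells: bi was higher in Trissin wells in 21 of 21 batches, in ITP wells in 18 of 19, and in Pdf wells in 22 of 23. The lateral gates also stood above the DN1p gates. Against AstC+VGlut wells, bi was higher in Trissin wells in 21 of 21 batches, in ITP wells in 18 of 20 and in Pdf wells in 25 of 26. Against CNMa wells it was higher in 18 of 18, 15 of 16 and 18 of 19. The order among the lateral gates, and that among the other gates, was less steady. bi was higher in Trissin than in ITP wells in 13 of 20 batches, and in ITP than in Pdf wells in 11 of 20. It was higher in AstC+VGlut than in AstA wells in 10 of 24, and in CNMa than in CCHa1 wells in 8 of 18.

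**Figure D1:**
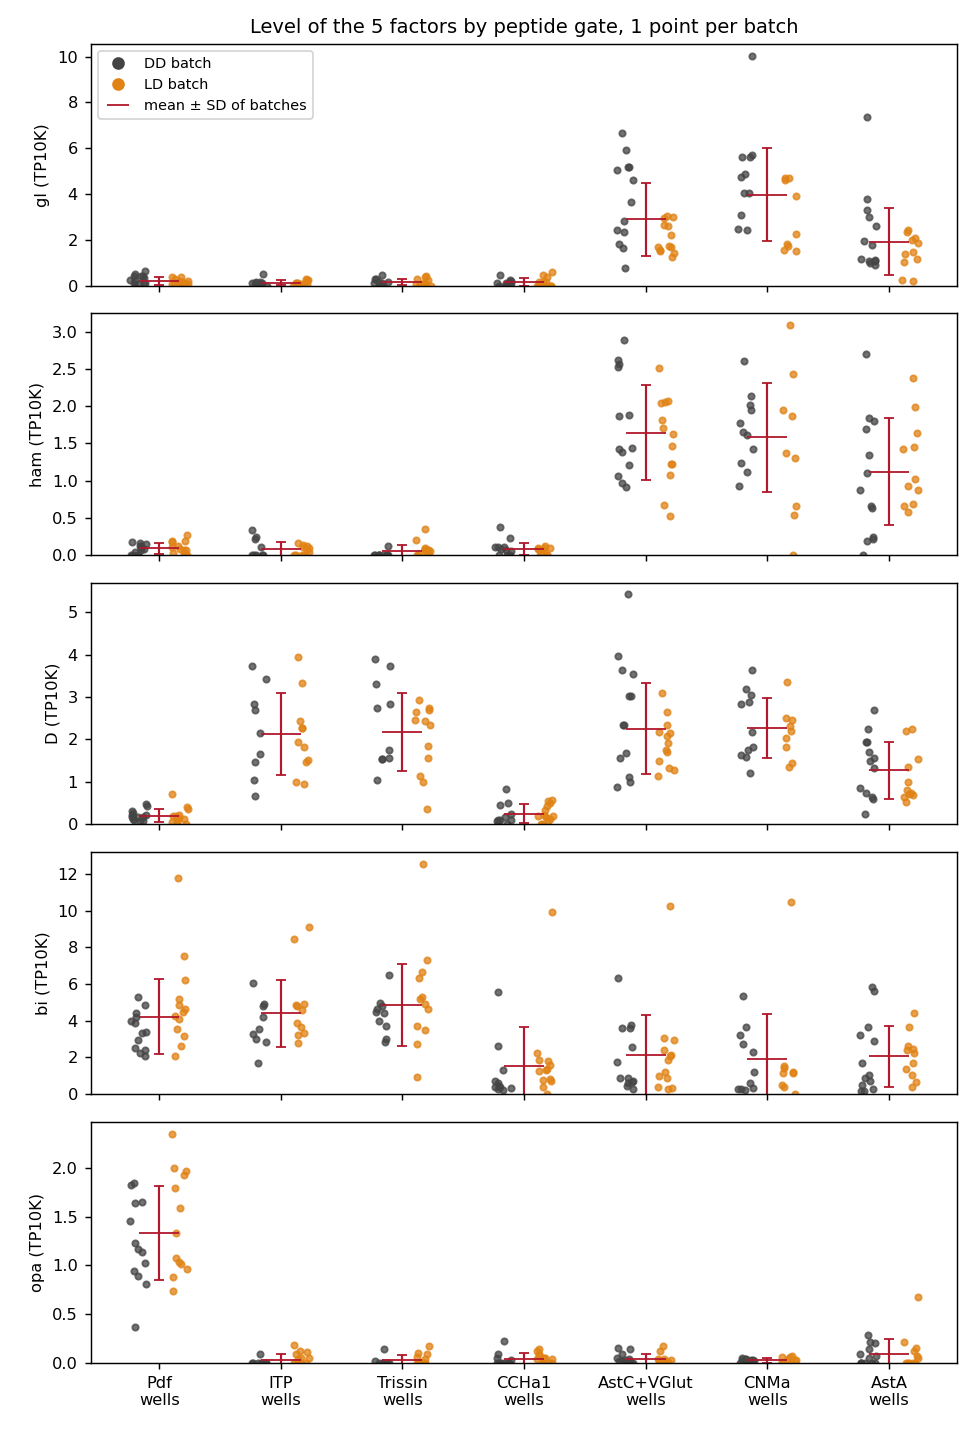
Level of each factor in TP10K (vertical axis) by peptide gate (horizontal axis), with 1 point for each batch, DD left of LD, and the mean ± SD of all batches in red. gl and ham stand high in AstC+VGlut, CNMa and AstA wells, D in all but Pdf and CCHa1 wells and opa in Pdf wells, while the bi points of 1 batch reach 9.13 to 12.5 in every gate that had 3 of its wells.

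The share of wells with a factor gave the same picture as its level. Every well was thinned to 6000 UMIs before wells with at least 1 UMI were counted, with exact Clopper-Pearson 95% intervals that cover counting error only. gl was found in 75.1% of CNMa wells (interval 69.9 to 79.8), in 64.2% of AstC+VGlut wells (59.7 to 68.6) and in 42.8% of AstA wells (36.4 to 49.4). The other 4 gates had gl in 6.34 to 9.32% of wells, the background against which the shares above were read. Whether this reflects low expression or RNA of other cells was not tested. Before thinning, gl was counted in 90.1% of CNMa wells, at a median depth of 17851 UMIs, and in 26.6% of Pdf wells, at 19011 UMIs. ham was found in 48.7% of AstC+VGlut, 48.6% of CNMa and 33.1% of AstA wells, and in 3.52 to 4.71% of wells in the other gates.

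D was found in 65.9% of Trissin wells (58.2 to 73.0), 59.2% of ITP wells (50.6 to 67.3), 61.4% of AstC+VGlut wells and 63.6% of CNMa wells. AstA wells had D in 36.9%, CCHa1 wells in 15.6% and Pdf wells in 10.7%. opa was found in 44.8% of Pdf wells (39.98 to 49.6), against 0.958 to 3.39% in 5 other gates and 0 of 142 ITP wells, which at this depth allows a share of up to 2.56% of wells with a UMI. Before thinning, 14 of the 142 ITP wells (9.86%) had opa. bi was found in 82.9% of Trissin, 79.6% of ITP and 77.2% of Pdf wells, and in 40.6 to 52.1% of wells of the other 4 gates. No gate can serve as the background of bi, since all held it.

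**Figure D2:**
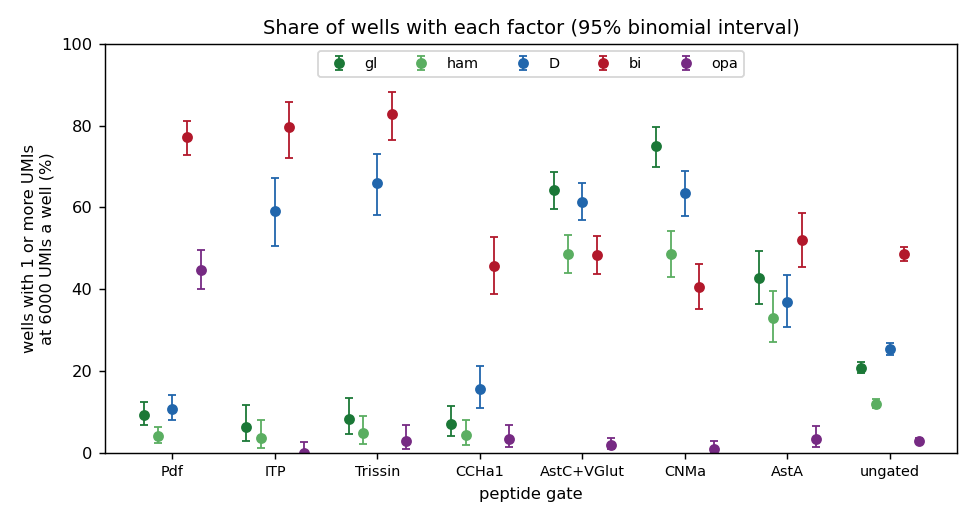
Share of wells with 1 or more UMIs of each factor after thinning to 6000 UMIs (vertical axis, percent) by peptide gate and in ungated wells (horizontal axis); bars are exact 95% binomial intervals. gl reaches 75.1% in CNMa wells and ham 48.7% in AstC+VGlut wells, opa stands at 44.8% in Pdf wells and under 3.4% in the other gates, and bi leads in the lateral gates.

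The AstA gate was mixed. In a split chosen after the values were seen, the 140 AstA wells with VGlut at 8 TP10K or more averaged 2.32 ± 1.23 TP10K of gl, 1.67 ± 0.814 of ham and 1.71 ± 0.874 of D (SD, n = 19 batches), with bi at 0.954 ± 0.925. The 96 AstA wells without VGlut at that level averaged 0.689 ± 0.795 of gl, 0.236 ± 0.365 of ham and 0.783 ± 1.15 of D (n = 15), with bi at 4.17 ± 2.35. The 55 AstA wells that also had AstC at 50 TP10K or more, the combination that the lateral posterior neurons carry, had 0.334 ± 0.493 of gl and 4.82 ± 1.98 of bi (n = 10).

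Wells outside the gates held gl, ham and D as well. By the same level of VGlut, the 1093 ungated wells with VGlut averaged 1.47 ± 0.686 TP10K of gl, 0.740 ± 0.439 of ham and 1.24 ± 0.552 of D (SD, n = 27 batches). The 2175 ungated wells without it averaged 0.336 ± 0.372 of gl, 0.0917 ± 0.0739 of ham and 0.517 ± 0.285 of D (n = 28). opa stood at 0.0359 ± 0.0366 TP10K in ungated wells with VGlut and at 0.103 ± 0.0950 in those without.

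gl, ham and D were often found in the same well. At 6000 UMIs, 122 of 464 AstC+VGlut wells (26.3%) held all 3, and so did 80 of 313 CNMa wells (25.6%) and 26 of 236 AstA wells (11.02%). No Pdf, ITP or CCHa1 well held all 3, and 2 of 170 Trissin wells did. In AstC+VGlut wells the product of the 3 single shares was 19.2%, and in CNMa wells 23.2%. Of AstC+VGlut wells with gl, 71.5% also held D and 54.7% ham, against 43.4% and 38.0% of those without gl. In CNMa wells the intervals of the shares overlapped, with D in 65.1% of wells with gl and 59.0% of those without, and ham in 50.2% and 43.6%. bi went the other way in AstC+VGlut wells, with 43.3% of wells with gl and 57.2% of wells without.

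AstC+VGlut wells also differed by how many of the 3 they held. The 122 wells with all 3 and the 66 wells with none were sequenced to a median of 17692 and 15279 UMIs. Wells with all 3 had 1.49 TP10K of bi against 3.70 in wells with none, 51.1 TP10K of CNMa against 15.2, and 15.9 TP10K of pdm3, a POU-domain factor gene, against 2.76. They also had 1.38 TP10K of Xport-B against 0.319, and 6.48 TP10K of emc against 2.21. AstC stood at 146 and 157 TP10K, and VGlut at 36.9 and 19.6. These are sums over wells of all batches, split by the factors themselves, and carry no test. Over all 5001 wells, those with opa held gl in 14.6%, D in 17.1% and bi in 73.7%, against 25.4%, 31.7% and 51.2% of wells without opa.

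Over all 162 combinations of batch and gate, the gene most like gl in log2(TP10K + 0.1) was ham, with a Pearson r of 0.87, followed by emc, a helix-loop-helix inhibitor gene (0.84), and Lac, a cell-surface immunoglobulin gene (0.76). The genes most like ham were gl (0.87), emc (0.85) and Lac (0.79). For D they were the Sox gene Sox21b (0.80), the receptor gene Gfrl (0.70) and the Toll-family gene 18w (0.57). For bi they were the homeobox gene hth (0.75), the Pax6 gene toy (0.65) and CG32700 (0.61). For opa they were CG43117 (0.83), Pdf (0.79), which is itself a gate gene, and the carboxylate transporter gene Indy (0.76). The points share batches, and r is a description. emc showed the step of gl and ham, with 5.48 TP10K in AstC+VGlut, 6.83 in CNMa and 5.07 in AstA wells and 0.428 to 0.682 in the other gates. Sox21b showed that of D, with 2.20 to 2.59 TP10K in all gates but CCHa1 (0.529) and Pdf (0.294).

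To ask which related genes go with these factors, wells with a DN1p peptide (the AstC+VGlut or CNMa gate, 566 wells) were compared with wells with a lateral peptide (the Pdf, ITP or Trissin gate, 736 wells) in 27 batches that had both. Of 7303 genes tested, 550 were higher (7.53%) and 767 lower (10.5%) in DN1p wells (edgeR quasi-likelihood test with the batch as a block, Benjamini-Hochberg adjusted p under 0.05). In DN1p wells gl was at 3.37 ± 1.72 TP10K and in lateral wells at 0.186 ± 0.158 (SD), a log2 difference of 4.14 ± 0.20 (SE), and ham was at 1.63 ± 0.654 and 0.0765 ± 0.0511, a log2 difference of 4.18 ± 0.21. The batches of the classes did not overlap for either gene, which held for 0.0959% of all genes with higher values in DN1p wells and for 0.0548% with lower ones. D was at 2.32 ± 0.829 in DN1p and 1.08 ± 0.512 in lateral wells, bi at 2.00 ± 2.21 and 4.35 ± 1.76, and opa at 0.0393 ± 0.0469 and 0.751 ± 0.352. bi was higher in DN1p wells in 1 of 27 batches.

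Genes of phototransduction, which gl is known to switch on in the eye, were represented among the genes higher in DN1p wells. Of 28 listed photoreceptor genes 26 were in the files and 14 had enough counts, of which 7 were higher in DN1p wells and none lower, with a list median log2 difference of 0.82 against -0.06 over all genes. Xport-B, which helps the TRP channel and rhodopsin to the membrane, was at 0.934 ± 0.755 TP10K in DN1p and 0.0669 ± 0.0775 in lateral wells (log2 difference 3.81 ± 0.25 SE, adjusted p = 5.1e-17, higher in 27 of 27 batches). The protein kinase C gene inaC (3.51 ± 0.34, adjusted p = 3.9e-11) and the channel gene trp (2.89 ± 0.46, adjusted p = 4.3e-06) were higher at low levels, with 0.561 and 0.112 TP10K in DN1p wells against 0.0416 and 0.0108 in lateral wells. rdgC, a phosphatase gene (1.39), Ggamma30A, a G protein gene (1.06), norpA, the phospholipase C gene of vision (0.82), and oc, a homeobox gene (0.53), were also higher, and Ggamma30A, norpA and oc are named here after their values were seen. Most of these departed from gl over the gates: in CCHa1 wells, where gl was low, Ggamma30A averaged 29.6 TP10K, against 8.21 in AstC+VGlut wells, and oc 1.44, against 1.31. norpA averaged 4.07 TP10K in CCHa1 wells, against 2.85 in AstC+VGlut and 5.07 in CNMa wells. trp averaged 0.0207 in AstC+VGlut wells, against 0.155 in CNMa and 0.173 in AstA wells. In AstA wells, where gl was high, inaC averaged 0.0197 and rdgC 0.173 TP10K, against 0.694 and 0.905 in AstC+VGlut wells. The call of oc was lost with doubled gates (adjusted p = 0.36). Of 5 genes listed as photoreceptor markers, 2 were tested and 1, trp, was higher in DN1p wells, as given above. The others were near 0, with ninaE at 0.0580, Arr2 at 0.0374, chp at 0.0260 and ninaC at 0.0194 TP10K in DN1p wells. ninaE did not pass the test (0.82 ± 0.55, adjusted p = 0.39). Rh7, a rhodopsin gene of the brain, stood at 0.308 and 0.311 TP10K, a log2 difference of -0.01 ± 0.22.

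Of the 10 genes of the early eye network, 4 were tested and toy (-3.24 ± 0.18, adjusted p = 2.0e-19) and hth (-1.57 ± 0.10, adjusted p = 1.4e-17) were lower in DN1p wells. eya, so, Optix and dac averaged 0.0353 to 0.106 TP10K there. The study names toy and hth for their enrichment in lateral neurons of these same cells, so their p-values are not independent evidence. In the Sox family, where 4 relatives of D were tested, Sox21b was higher (0.85 ± 0.12) and SoxN (-0.58 ± 0.15) and Sox14 (-0.96 ± 0.21) lower. None of the 3 tested T-box relatives of bi passed the test, and org-1, the most abundant, was at 0.794 and 0.679 TP10K. Other factors that the study names were pdm3, higher at 9.74 ± 6.20 against 0.803 ± 0.545 TP10K (log2 difference 3.54 ± 0.17), and Hr51, CrebA, toy and hth, all lower. The study picked that list on these cells, so its 1 higher and 4 lower of 5 tested are not independent evidence.

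Among lateral cells, Pdf wells (417) were compared with ITP or Trissin wells (309) in 24 batches. Of 6159 genes tested, 481 were higher (7.81%) and 424 lower (6.88%) in Pdf wells. opa was at 1.36 ± 0.431 TP10K in Pdf and 0.0280 ± 0.0427 in ITP or Trissin wells (log2 difference 5.003 ± 0.28 SE), and D at 0.209 ± 0.166 and 2.29 ± 0.722 (-3.49 ± 0.22). For both the batches of the classes did not overlap, which held for 0.0649% of all genes with higher and for 0.0974% with lower values in Pdf wells. bi differed little, at 4.09 ± 2.13 and 4.72 ± 1.74 (-0.26 ± 0.11), and gl was near 0 in both, at 0.202 and 0.141. Of 4 relatives of D tested, 2 were lower in Pdf wells and none higher, while Sox14 (0.19 ± 0.24, adjusted p = 0.75) and Sox15 (1.08 ± 0.59, adjusted p = 0.28) did not pass the test. SoxN was at 0.265 ± 0.176 TP10K in Pdf and 7.08 ± 2.75 in ITP or Trissin wells (-4.77 ± 0.19, adjusted p = 7.3e-24, lower in 24 of 24 batches), and Sox21b at 0.273 ± 0.488 and 2.43 ± 0.721 (-3.53 ± 0.26, adjusted p = 6.6e-15). toy was higher in Pdf wells (0.84 ± 0.12), norpA (-0.85 ± 0.14) and Galphaq (-0.34 ± 0.09) were lower, and hth did not pass the test (0.16 ± 0.07, adjusted p = 0.18). CrebA, at 0.64 ± 0.22 (adjusted p = 0.037), lost its call under DESeq2 (adjusted p = 0.062), with halved gates (0.48, adjusted p = 0.18) and when any 1 of 13 batches was left out.

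**Figure D3:**
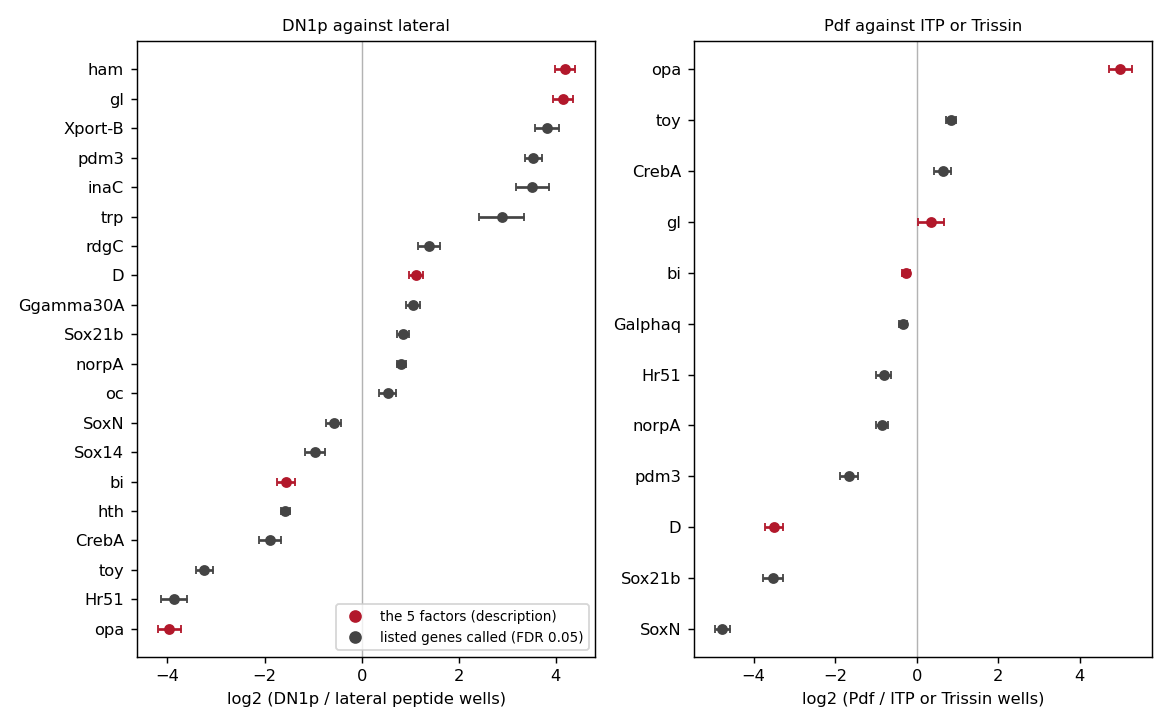
Log2 difference ± SE (horizontal axis) of listed genes that passed the test (dark) and of the factors (red, a description with no test), for DN1p against lateral peptide wells on the left and Pdf against ITP or Trissin wells on the right; ham was too low to be fitted on the right. ham, gl, Xport-B, pdm3 and inaC stand between 3.51 and 4.18 on the left, and opa stands at 5.003 and SoxN at -4.77 on the right.

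In some batches bi was high in every gate. In the ZT14 batch of 2 libraries, bi stood at 9.13 to 12.5 TP10K in every gate with 3 wells and at 10.9 in ungated wells, against 1.48 in the ungated wells of the other ZT14 batch, and it was found in 100% of wells of both libraries. This batch stood apart beyond bi: over ungated wells it was the highest by 1.5 times or more for 54 of 1494 genes, where the median batch was so for 1 gene. In 14 of 84 libraries bi was found in 80% of wells or more at 6000 UMIs, and the remaining 70 libraries ranged from 0 to 75.3%, so no gap separated them. Without the 14 libraries, a choice made after the values were seen, bi averaged 4.34 ± 1.53 TP10K in Trissin, 3.81 ± 1.52 in ITP and 3.58 ± 1.44 in Pdf wells. It then averaged 1.59 ± 1.43 in AstA, 1.23 ± 0.837 in AstC+VGlut, 0.866 ± 0.610 in CCHa1 and 0.847 ± 0.634 in CNMa wells. The lateral gates again had the higher means.

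The antisense gene CR32773 was even across the gates, at 1.91 to 2.45 TP10K on average, so that it did not share the order of bi. By library it had a median of 1.79 TP10K, and the libraries of the ZT14 batch had 6.52 and 3.14. It lay above the median in 11 of the 14 libraries. Its part in the counts of bi was not tested. gl also stood apart once: the ungated wells of a CT06 batch with 6 such wells had 4.17 TP10K, where no other batch exceeded 1.25. That batch was the highest by 1.5 times or more for 64 of 1494 genes, the most of any batch.

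**Figure D4:**
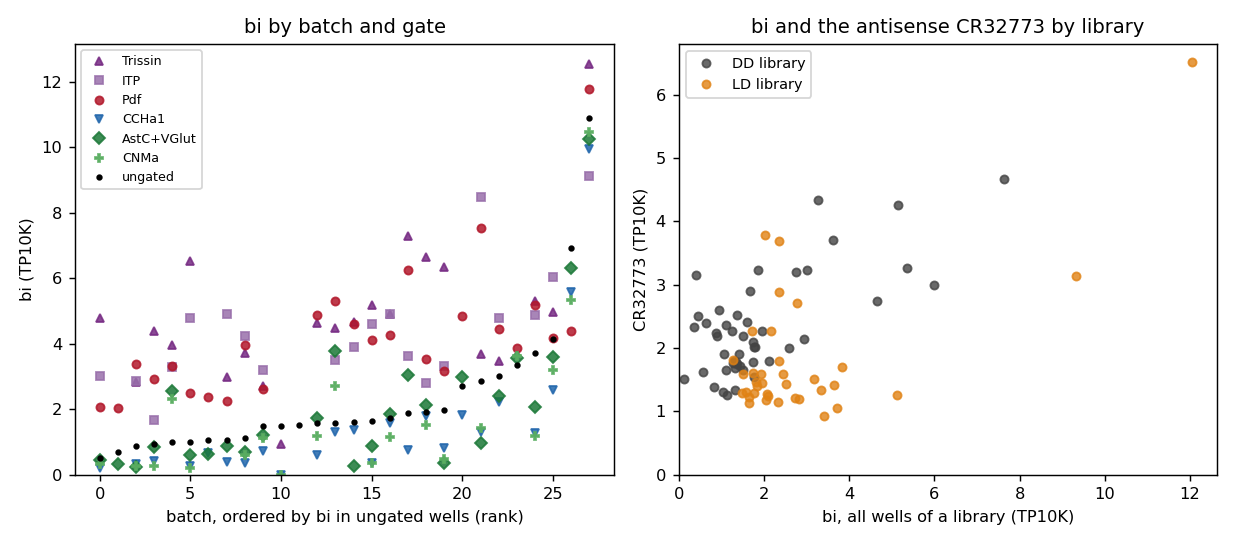
Left, bi in TP10K (vertical axis) by batch, with batches ordered by their ungated wells (horizontal axis, rank) and 1 symbol for each gate; right, CR32773 against bi in TP10K for each of 84 libraries. The batch at the right edge of the left panel holds 9.13 to 12.5 TP10K of bi in every gate shown, and its 2 libraries hold 6.52 and 3.14 TP10K of CR32773.

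The factors were then compared between DD and LD within each gate, with the time point in the fit, and none passed the test in any of 21 pairs of factor and gate that had enough counts (edgeR quasi-likelihood test, adjusted over all genes). Of these, 3 had an unadjusted p under 0.05, and DESeq2 called 1 of the 21. Over all genes, 3.01% were called in Pdf wells, 0.974% in ITP, 0.736% in Trissin, 0.871% in CCHa1, 1.2% in AstC+VGlut, 0.0151% in CNMa and 0.351% in AstA wells. gl averaged 3.69 ± 1.85 TP10K in DD and 2.10 ± 0.663 in LD in AstC+VGlut wells (SD, n = 13 each), with overlapping batches and a log2 difference of 0.54 ± 0.24 (SE; adjusted p = 0.32). It passed the test with each library as a unit (adjusted p = 0.042), a setting that counts libraries of the same batch as separate replicates. Such libraries share their batch and are not independent, here and wherever that setting is given below. Over the 4 gates tested, gl differed by 0.40 to 0.54, and 1 of them was Pdf wells (0.48 ± 0.48, adjusted p = 0.63), where gl was low. bi differed by -0.86 to -0.29 over 7 gates, which share batches, and in CNMa wells the value ran from -0.65 to 0.34 when each batch was left out in turn. In Pdf wells bi averaged 3.49 ± 1.04 TP10K in DD and 4.95 ± 2.51 in LD (n = 13 each), a log2 difference of -0.69 ± 0.22 (adjusted p = 0.093), with overlapping batches. This difference passed the test under DESeq2 (-0.70, adjusted p = 0.044), with each library as a unit (-0.75, adjusted p = 0.0024), and when the larger of the ZT14 batches was left out (-0.82), which leaves ZT14 to the batch of 2 libraries with the high bi described above. D differed by -0.14 to 0.11 in 6 gates, opa by -0.45 ± 0.23 in Pdf wells (adjusted p = 0.30), and ham by -0.76 to 0.09 in 3 gates.

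The difference between DN1p and lateral wells was tested for a change with light as well. Its log2 value in DD minus that in LD was 0.02 ± 0.62 (SE) for gl, 0.28 ± 0.43 for ham, 0.21 ± 0.29 for D, -0.05 ± 0.37 for bi and 0.01 ± 0.44 for opa. Of all 7303 genes, 0% passed that test with edgeR or DESeq2, and 248 had an unadjusted p under 0.05, none of them a member of the 5.

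A rhythm of 24 h was fitted as a cosine and a sine over batches, in DD and LD apart. In DD, 0 of 20 pairs of factor and gate passed the edgeR test, 1 had an unadjusted p under 0.05 and DESeq2 called 0. In LD, 0 of 19 passed, 2 had an unadjusted p under 0.05 and DESeq2 called 1. In DD 1.36% of all genes passed in Pdf wells, 0.259% in ITP, 1.15% in Trissin, 0% in CCHa1 (122 at an unadjusted p under 0.05), 1.35% in AstC+VGlut, 1.37% in CNMa and 0% in AstA wells (149 at an unadjusted p under 0.05). In LD it was 3.36% in Pdf, 0.595% in ITP, 0.765% in Trissin, 0.393% in CCHa1, 2.45% in AstC+VGlut, 0% in CNMa (336 at an unadjusted p under 0.05) and 0.101% in AstA wells. The clock gene tim, fitted the same way, passed in 3 of 7 gates in DD and in 5 of 7 in LD. Its trough-to-peak log2 difference in Pdf wells was 3.47 in DD (adjusted p = 0.023) and 3.79 in LD (adjusted p = 0.0018). In DD tim did not pass in CCHa1 (adjusted p = 0.68), AstC+VGlut (0.081), CNMa (0.065) and AstA wells (0.39). In LD it did not pass in Trissin (0.061) and CNMa wells (0.12), where its fitted difference was 4.15 and 5.35. A rhythm of a factor could thus be missed in these gates.

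The means of gl over DD batches of AstC+VGlut wells were 4.13, 5.91, 3.03, 3.21, 4.01 and 2.21 TP10K from CT2 to CT22, with a fitted trough-to-peak log2 difference of 0.54 (adjusted p = 0.89). In LD gl in these wells had the lowest adjusted p of the rhythm tests. Its batch means there were 2.78, 2.18, 2.74, 1.48, 1.68 and 1.39 TP10K at ZT2, 6, 10, 14, 18 and 22, a fitted trough-to-peak log2 difference of 0.97 with a peak at 6.33 h (adjusted p = 0.36, and 0.039 with each library as a unit). In CNMa wells the fitted difference was 2.08 with a peak at 6.56 h (adjusted p = 0.47, and 0.0046 with DESeq2). The CNMa gate itself moved with time, with 2 to 43 LD wells at a time point and no batch with 3 wells at ZT6.

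ham in AstC+VGlut wells had a fitted difference of 0.43 in DD (adjusted p = 0.90) and 0.86 in LD (adjusted p = 0.66, and 0.026 with each library as a unit), with batches of 0.517 to 2.51 TP10K at ZT18 alone. D in the same wells had 1.23 in DD with a peak at 1.67 h (adjusted p = 0.57) and 0.84 in LD with a peak at 22.5 h (adjusted p = 0.41). In ITP wells D had 1.35 in DD with a peak at 11.6 h (adjusted p = 0.86) and 1.08 in LD with a peak at 10.1 h (adjusted p = 0.64). opa in Pdf wells had 0.65 in DD (adjusted p = 0.80) and 0.61 in LD (adjusted p = 0.75). bi in CNMa wells had the largest fitted difference of the 5 factors, 3.09 in DD with a peak at 8.53 h (adjusted p = 0.23) and 3.47 in LD (adjusted p = 0.76). The DD value passed the test without a filter on low counts (adjusted p = 0.00014) and with each library as a unit (adjusted p = 0.029). It also passed when 1 batch of CT2 or 1 of CT6 was left out (4.55 and 3.70). Each was the only CNMa batch with 3 wells at its time, so the time point was lost with it. The batch means of bi in these wells were 3.21, 0.281, 3.38, 2.51, 0.462 and 0.231 TP10K from CT2 to CT22. The DD libraries left out above for their high share of wells with bi came from CT2, CT6, CT10 and CT14. Whether the fitted rhythm followed these libraries was not tested. The LD value passed without a filter (adjusted p = 0.036). Each time point had at most 3 batches, and ITP and CNMa wells had 0 or 1 batch with 3 wells at several of them.

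**Figure D5:**
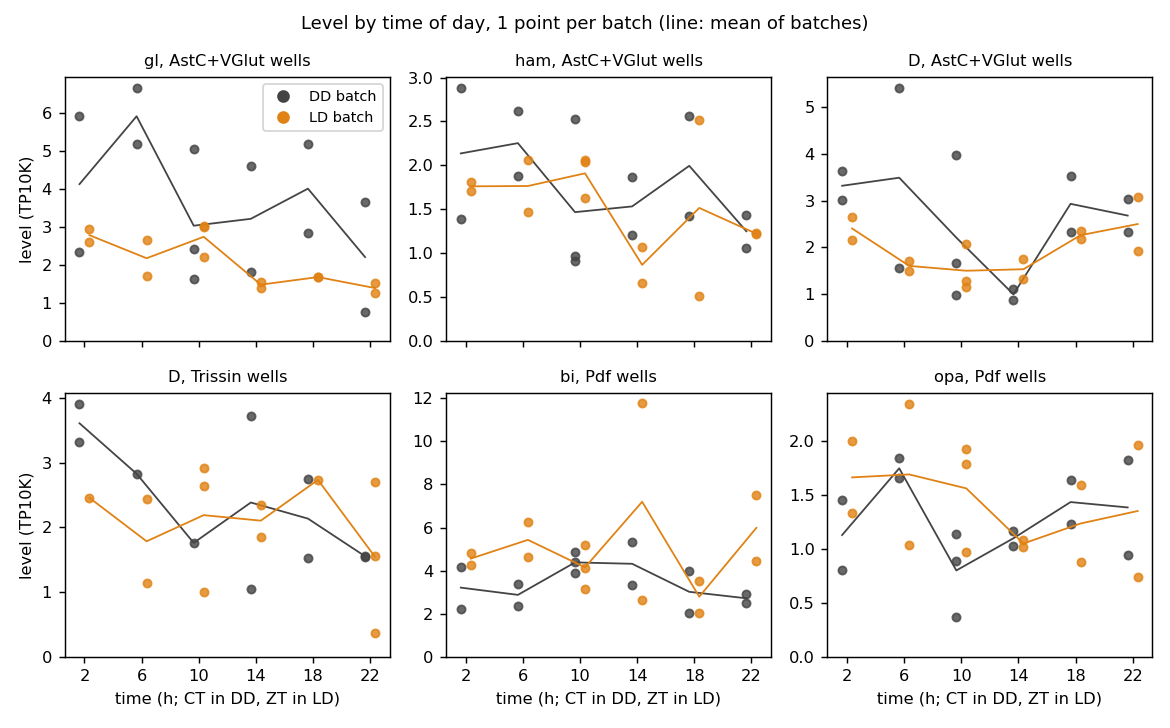
Level in TP10K (vertical axis) by time of day in hours (horizontal axis, CT in DD and ZT in LD), with 1 point for each batch and a line through the batch means, for gl, ham and D in AstC+VGlut wells, D in Trissin wells, and bi and opa in Pdf wells. DD and LD batches overlap in every panel, and none of the factors shown passed the light or rhythm test.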

How the data were processed

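UMI counts per gene and well were deposited by the authors, who processed CEL-Seq2 libraries of single sorted cells with zUMIs, using STAR and genome build dm6, and counted exonic reads. The annotation release and the use of strand are not given in the sources used here. Spike-in and EGFP UMIs (2.47% and 0.197%) were left out of the totals. Members and gene lists were chosen with earlier results of these data known. Libraries held 191993 to 4259643 UMIs. Counts of a gate were summed per batch with 3 or more wells and tested in R 4.3.3 with edgeR 4.0.16 (TMM, filterByExpr, quasi-likelihood, Benjamini-Hochberg at 0.05). The light test carried the time point, the rhythm test a 24 h cosine and sine, and the class tests the batch as a block. DESeq2 1.42.0 was an alternative. The tests were tried on simulated data. No doublet caller was run, and 231 wells passed 2 gates and 1 passed 3. Of the 96 well barcodes, which mark plate positions, 92 occurred in every library, and 0 wells were identical. The genes named were the 5 factors, the 3 genes most like each, and up to 4 called genes per list and direction. Glial, Kenyon cell, cholinergic, GABAergic and haemocyte marker lists summed to 0.527 to 1.35, 7.22 to 16.4, 3.47 to 9.41, 1.17 to 1.99 and 0.0567 to 0.115 TP10K in the gates, and photoreceptor markers to 0.0365 to 0.258, highest in CNMa wells, with 1 of 5 at 0 there. Their part in any result was not tested. The 8 clock genes held 2 lower calls in DN1p wells, and 3 higher and 1 lower in Pdf wells. Intervals cover counting error only.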

Additional observations from a re-analysis of the deposited data

Results flagged for a closer look

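Within a time point, the highest or lowest library stood apart from the others in 8 of 60 sets of libraries. The limit used flags about 1 in 20 sets of independent libraries. These libraries were nested in batches and the factors were read in the same libraries, so the 8 cannot be set against that rate. D was at 2.30 TP10K in 1 CT2 library, and the next had 1.41. bi was at 5.999 in 1 CT14 library, with the next at 1.86, and at 5.13 in 1 ZT10 library, with the next at 2.73. gl was at 2.02 in 1 CT22 library, with the next at 1.03. ham was at 0.276 in 1 ZT2 library, and the next lowest had 0.477. opa was at 0.381 in 1 CT10 library and 0.424 in 1 ZT10 library, with the next at 0.185 and 0.192. opa was at 0 in 1 CT18 library with 32 kept wells, of which 1 was a Pdf well, and the next lowest had 0.162. These are levels over all kept wells of a library. The number of Pdf wells was 4 to 9 in the other CT18 libraries, and the part of the cell mix was not tested.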

How the results depend on the processing

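Mean levels were checked in 15 combinations of factor and gate, all of them gates where the factor was high. They moved by less than 1 SD in 15 of 15 under each of 6 settings. The 3 of bi also did so without the libraries in which bi was found in 80% of wells or more. The SD is that over batches, a wide limit, and the settings reuse wells of the main result, so a larger move was unlikely from the start. The share of positive wells followed the definition. At 3 or more UMIs it was 24.8% for gl and 11.2% for ham in AstC+VGlut wells, 13.4% for D in ITP wells, 37.3% for bi and 7.69% for opa in Pdf wells, and 1.51% and 0.958% for gl, ham and D together in AstC+VGlut and CNMa wells. As counted, without thinning, the same shares were 80.4%, 69.4%, 79.6%, 92.5%, 71.8%, 55.4% and 62.9%. With gates halved, gl and ham were in 54.9% and 40.2% of AstC+VGlut wells and the 3 together in 20.95% of them and 18.8% of CNMa wells. With gates doubled, the AstC+VGlut values were 71.4%, 54.8% and 32.2%, and gl was in 59.6% of AstC+VGlut wells that passed 1 gate only. Against 0 called pairs of factor and gate, the light test called 1 with DESeq2 and 2 with each library as a unit. Calls by library rest on libraries nested in batches, which are not independent replicates. The DD rhythm test called 2 without a filter and 2 with each library as a unit, and the LD rhythm test 1 without a filter, 1 with DESeq2 and 2 with each library as a unit. The interaction called 1 gene, not 1 of the 5, without a filter. Leaving out each batch in turn gave 0 to 1 calls for light and for the DD rhythm. dac, not called at -0.04, was called at 1.01 in DN1p wells with gates halved. The cause was not tested for any of these. With the batch number of the titles as a replicate block, the DD rhythm test called 1 pair, bi in AstA wells (3.999, adjusted p = 0.038). The light test with that block could not be fitted, since no number was shared by DD and LD, and the class tests were not run by library.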
